A study of Equus caballus with 6 samples.

Results

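The genes described here are 9 markers of macrophages and of MHC class II, read as a check on immune cells in dissected horse joint tissue: CD68, AIF1, CSF1R, LAPTM5, CD14, CCL3, CD74, DRB and DQA. They were found by their symbol or full gene name in the descriptions of the probes that are not controls, and they have 24 probes, among 43603 probes and 13567 named genes. CD68, CSF1R, CD14, CCL3 and CD74 have 1 probe each, LAPTM5 has 2, AIF1 and DQA have 4 each and DRB has 9. AIF1 was described by a locus number that the table of horse genes names AIF1. A probe for the related gene AIF1L and a probe described as resembling DQ alpha were left out.

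The samples were cells taken by laser capture microdissection, which cuts chosen cells from a thin tissue section, and each of 6 groups had 1 single-colour array. The adult groups were stifle articular cartilage at 15 years of age, split by depth: the superficial zone held the outer 10%, the middle zone 20 to 30% and the deep zone 50 to 90% of the thickness. The fetal groups were hindlimb tissue of gestational day 40, namely intermediate interzone and outer interzone, which lie between the skeletal elements where a joint will form, and the transient embryonic cartilage of the bone models. No genotype, strain or treatment was given for any group, and all 6 RNAs were amplified by PCR before labelling. How many animals gave each group was not stated in the sources used here.

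Macrophages are phagocytic cells that live in most tissues and depend on the receptor encoded by CSF1R. Cartilage holds few or no blood vessels, and resident macrophages of a joint are known mainly from the synovial lining. MHC class II molecules are pairs of an alpha and a beta chain on the surface of antigen-presenting cells, and the invariant chain, CD74, holds their groove during assembly until cathepsin S cleaves it. The transactivator CIITA switches on class II genes together with the RFX factors. Macrophages, dendritic cells and B cells carry class II all the time, and other cells can be made to carry it by interferon gamma.

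The probe sequences are shown because the result for a gene rests on which part of its RNA the probe reads. The first set holds the probes of CSF1R, CCL3 and DQA, the 3 genes measured on all 3 adult arrays, with a stop codon in capitals where the probe reaches it.
CSF1R: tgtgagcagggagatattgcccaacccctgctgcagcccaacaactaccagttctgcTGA
CCL3: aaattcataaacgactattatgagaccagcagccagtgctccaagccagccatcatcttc
DQA: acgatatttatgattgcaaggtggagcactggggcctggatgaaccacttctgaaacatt

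The next set holds CD68, AIF1 and LAPTM5, whose probes shown here lay in open reading frames and were above background in the fetal regions, and CD74, which was above background nowhere. For AIF1, 1 of its 4 probes is shown, and it is not the reported probe that gave the differences below. For LAPTM5, 1 of its 2 probes is shown.
CD68: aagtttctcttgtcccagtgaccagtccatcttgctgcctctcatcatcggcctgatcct
AIF1: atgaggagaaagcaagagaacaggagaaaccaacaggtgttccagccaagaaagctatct
LAPTM5: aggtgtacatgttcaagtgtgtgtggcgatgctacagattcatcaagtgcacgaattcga
CD74: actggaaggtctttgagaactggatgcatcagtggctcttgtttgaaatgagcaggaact

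DRB is read by probes of 3 transcript records that did not follow the same pattern. Of the first record, the last 30 bases of 1 of its 5 overlapping 3′ end probes are shown with the polyadenylation signal AATAAA in capitals, then its coding probe. A coding probe of the second record, with the stop codon at its end in capitals, and 1 of the third follow.
DRB, the first record, 3′ end: ttctttataaagtttttctcaAATAAAcat
DRB, the first record, coding: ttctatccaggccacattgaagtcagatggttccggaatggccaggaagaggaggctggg
DRB, the second record: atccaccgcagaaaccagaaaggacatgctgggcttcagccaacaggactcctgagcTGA
DRB, the third record: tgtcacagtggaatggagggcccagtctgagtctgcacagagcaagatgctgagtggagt

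The letters AATAAA, searched on the strand of the probe, are in 6 of the 24 probes, or 25.0%, against 8.64% of all probes on the array. These are the 5 DRB 3′ end probes, which share at least 56 of 60 bases, and 1 LAPTM5 probe. The 25.0% thus counts nearly the same sequence 5 times and cannot be read as an excess over all probes.

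Values are the scanner's processed signal, an intensity after background subtraction, and a probe counts as measured where the scanner's software called it well above background. Few probes were so called in adult cartilage: 26.5% of probes on the superficial array, 8.4% on the middle and 10.9% on the deep array, against 37.1%, 43.3% and 44.7% on the intermediate interzone, outer interzone and transient cartilage arrays. The lowest signal called well above background lay between 7.65 and 9.24 on the 6 arrays, and the 153 negative control spots of an array had a median between 1.53 and 2.01. Because overall brightness differed between arrays, differences were computed as log2 of the signal minus the array's 75th percentile over the 1770 probes above background on every array. For superficial, middle and deep cartilage that percentile was 2560, 513 and 897, and it was 2440, 4390 and 4310 on the intermediate interzone, outer interzone and transient cartilage arrays. All 3 adult arrays were on the second slide and all 3 fetal arrays on the first, so slide and age cannot be told apart. The cartilage genes ACAN, COMP, SOX9 and PRG4 were above background on all 6 arrays, while COL2A1, which encodes type II collagen, was so on the 3 fetal arrays and on no adult array.

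With 1 array per group, each difference is a description of these 6 arrays, and p-values are given for 1 fit only, which took regions as replicates. Errors are those that the scanner's software gives for spots, so they leave out differences between animals, dissections and amplifications. The number of arrays limits the precision. In tissue samples of this kind, fewer cells of a type and less RNA per cell cannot be told apart.

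Of the 9 genes, 6 were well above background in superficial, 4 in middle and 5 in deep cartilage, against 7 in intermediate interzone, 6 in outer interzone and 7 in transient cartilage. The share of all named genes above background on the same arrays was 28.9%, 9.77% and 12.4%, then 38.0%, 43.7% and 45.9%. The 9 genes did not share 1 pattern: CSF1R and CCL3 were above background on all 6 arrays, CD68, LAPTM5, DRB and DQA on 5, AIF1 on 3 and CD14 and CD74 on none. Among all named genes 4.44% were above background on all 6 arrays and 37.9% on none.

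**Figure D1:**
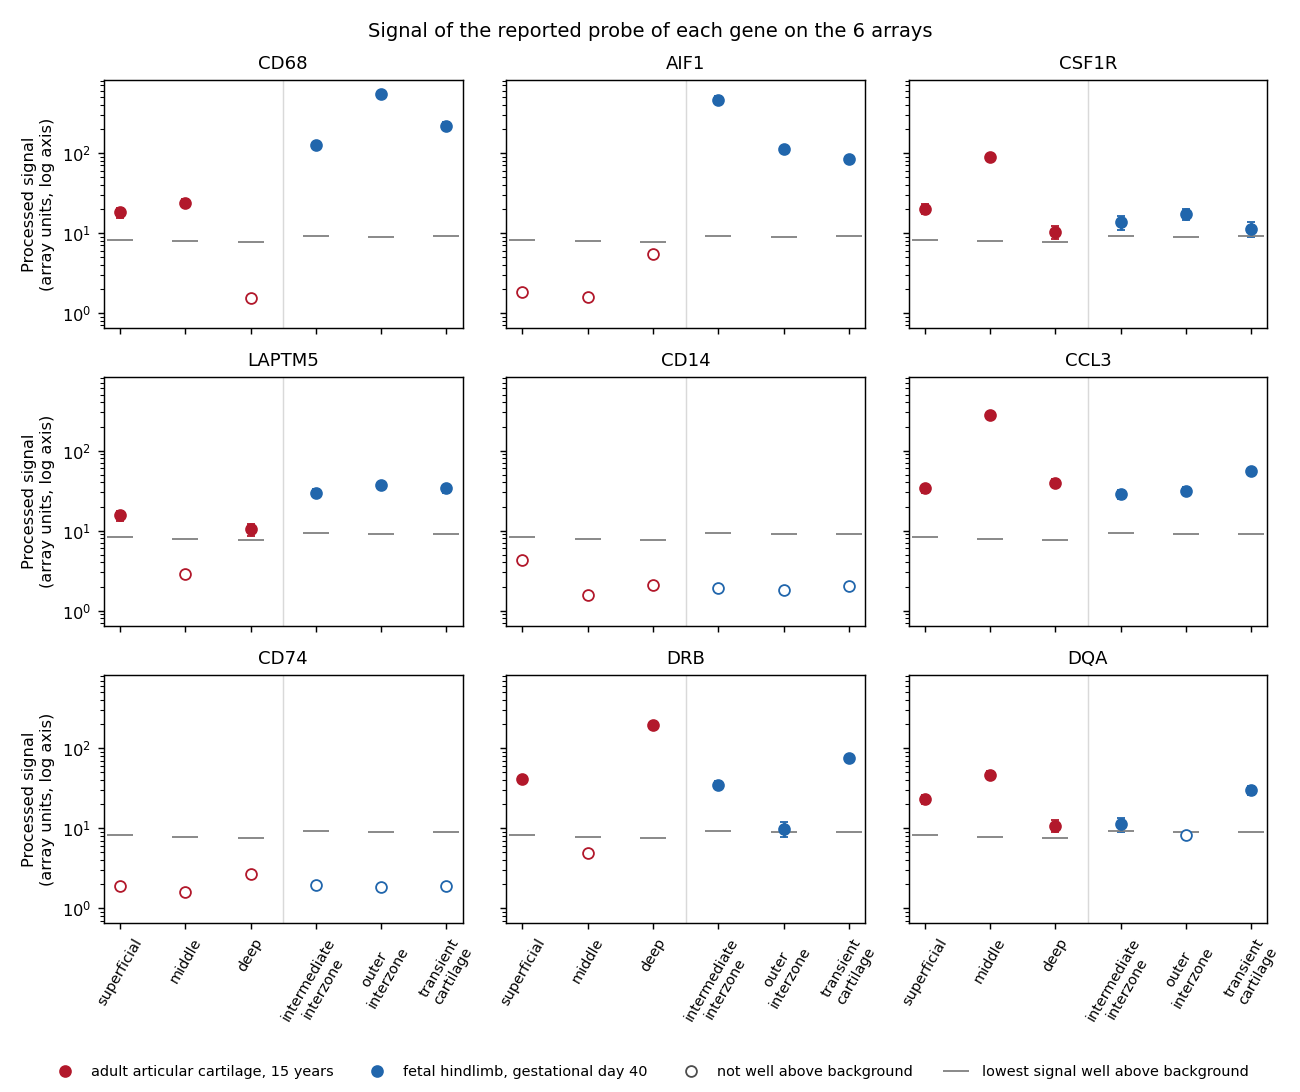
Processed signal (array units, log axis) of the reported probe of each of the 9 genes on the 6 arrays, adult zones in red and fetal regions in blue; filled points are well above background, with the scanner's spot error as bars, open points are not, and grey dashes mark the lowest signal called well above background on that array. CSF1R, CCL3 and DQA have their highest point on the middle array, at 88.9, 280.0 and 46.7, AIF1 is filled on the fetal arrays only, and CD14 and CD74 are open on all 6.

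CSF1R encodes the receptor tyrosine kinase for the macrophage growth factors CSF1 and IL34. Its processed signal was 20.0 in the superficial, 88.9 in the middle and 10.3 in the deep zone, and 13.7 in intermediate interzone, 17.1 in outer interzone and 11.3 in transient cartilage. The middle zone stood apart, and the other 5 arrays lay near the lowest signal that was called above background. On the scaled log2 levels the order was middle (-2.53), deep (-6.44), superficial (-7.00), intermediate interzone (-7.48), outer interzone (-8.00) and transient cartilage (-8.58). From deep onward, each step to the next array was smaller than 2 spot errors of the difference. The genes CSF1 and IL34 themselves were above background on no array.

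CCL3 encodes a chemokine made by activated macrophages and other leukocytes. Its processed signal was 33.7, 280.0 and 39.6 in the superficial, middle and deep zones, and 28.7, 31.1 and 55.1 in the intermediate interzone, outer interzone and transient cartilage. The middle zone was again the high one, at a scaled level of -0.87, followed by deep at -4.50. The superficial (-6.25), transient cartilage (-6.29) and intermediate interzone (-6.41) arrays were closer to each other than 2 spot errors, and the outer interzone was lowest at -7.14. CCR1, a receptor of CCL3, was above background on no array.

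DQA encodes the alpha chain of the class II molecule DQ. One of its 4 probes was above background, with a processed signal of 23.3, 46.7 and 10.8 in the superficial, middle and deep zones, and of 11.3, 8.11 and 29.7 in the intermediate interzone, outer interzone and transient cartilage, where the outer interzone value was not well above background. Its middle zone was the highest of the 6 arrays by scaled level (-3.46, against -6.38 in the deep and -6.78 in the superficial zone). The other 3 DQA probes, of other records, were above background on no array, so this pattern rests on 1 probe sequence. DQA and DRB belong to families of near-identical genes that also vary between animals, so a probe may read more or fewer genes than its name says.

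CD68 encodes a glycoprotein of lysosomes and endosomes that is abundant in macrophages. Its processed signal was 18.2 in the superficial and 24.0 in the middle zone and not well above background in the deep zone (1.53), against 126 in intermediate interzone, 542 in outer interzone and 221 in transient cartilage. By scaled level the outer interzone was highest (-3.02). The intermediate interzone (-4.28), transient cartilage (-4.29) and the middle zone (-4.42) were closer to each other than 2 spot errors, and the superficial zone was lowest of the measured arrays (-7.14).

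AIF1, also known as IBA1, encodes a calcium-binding protein that bundles actin in macrophages and microglia. All 4 of its probes were above background on the 3 fetal arrays and none on the 3 adult arrays. Their signals ran from 195 to 466 in intermediate interzone, from 62.2 to 148 in outer interzone and from 44.9 to 119 in transient cartilage, against at most 5.42 on any adult array. Neighbouring probes of the 4 share 40 bases and those next but one share 20, so they are not independent. Being above background on all 3 fetal and no adult array was true of 9.73% of all named genes.

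LAPTM5 encodes a lysosomal membrane protein of blood-forming cells. Its coding probe had a signal of 15.5 in the superficial, 2.86 in the middle (not well above background) and 10.4 in the deep zone, and of 29.8, 36.9 and 33.8 in the intermediate interzone, outer interzone and transient cartilage. The scaled levels of the 5 measured arrays, between -7.37 and -6.36, had no step larger than 2 spot errors between neighbours. The other LAPTM5 probe, the one that holds AATAAA, was above background on no array.

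CD14, the co-receptor for bacterial lipopolysaccharide on monocytes and macrophages, had signals of 4.28, 1.58 and 2.08 in the superficial, middle and deep zones, and of 1.93, 1.81 and 2.06 in the intermediate interzone, outer interzone and transient cartilage. CD74, the invariant chain, had signals between 1.58 and 2.67 in the adult zones and between 1.85 and 1.95 in the fetal regions. None of these was well above background. Each gene has a single probe here, so a level below this limit was not detectable rather than absent.

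DRB encodes the beta chain of the class II molecule DR. Of its 9 probes, 3 were above background in the superficial, 0 in the middle and 5 in the deep zone, against 7 in intermediate interzone, 4 in outer interzone and 7 in transient cartilage. The 5 overlapping 3′ end probes of the first record had a median signal of 12.6 in superficial (3 of 5 above background), 2.08 in middle (0 of 5) and 154 in deep cartilage (5 of 5). In the fetal regions their median was 24.6 in intermediate interzone (5 of 5), 9.85 in outer interzone (3 of 5) and 70.6 in transient cartilage (5 of 5). The deep zone was the high array for these probes: its scaled level exceeded that of transient cartilage by 3.38 ± 0.18 on average (log2, SD between the 5 probes), or 10.4-fold. The probes share at least 56 of 60 bases, so this SD is the spread of near-identical probes on 1 pair of arrays. The size of the 10.4-fold difference depends on the scaling. Without scaling, the median signals were 154 in deep and 70.6 in transient cartilage. The percentile used for scaling was 897 on the deep and 4310 on the transient cartilage array. The pair also crosses slide and age, and it was not tested under other scalings or against all genes.

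The coding probe of the same first record had signals of 3.05, 1.58 and 1.53 in the superficial, middle and deep zones and of 2.20, 2.00 and 1.91 in the intermediate interzone, outer interzone and transient cartilage, none above background. The probe of the second record was above background in the fetal regions only, with 179, 19.5 and 206 in the intermediate interzone, outer interzone and transient cartilage, against 2.52, 1.58 and 1.96 in the superficial, middle and deep zones. Of the third record, 1 of 2 probes was above background in the intermediate interzone (30.8) and transient cartilage (95.4) but not in the outer interzone (6.18) or in any adult zone. So in adult cartilage DRB was seen by the 3′ end probes of 1 record alone, while in the fetal regions probes of 3 records saw it, with the outer interzone low for each. Whether the probe's place in the RNA plays a part was not tested.

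**Figure D2:**
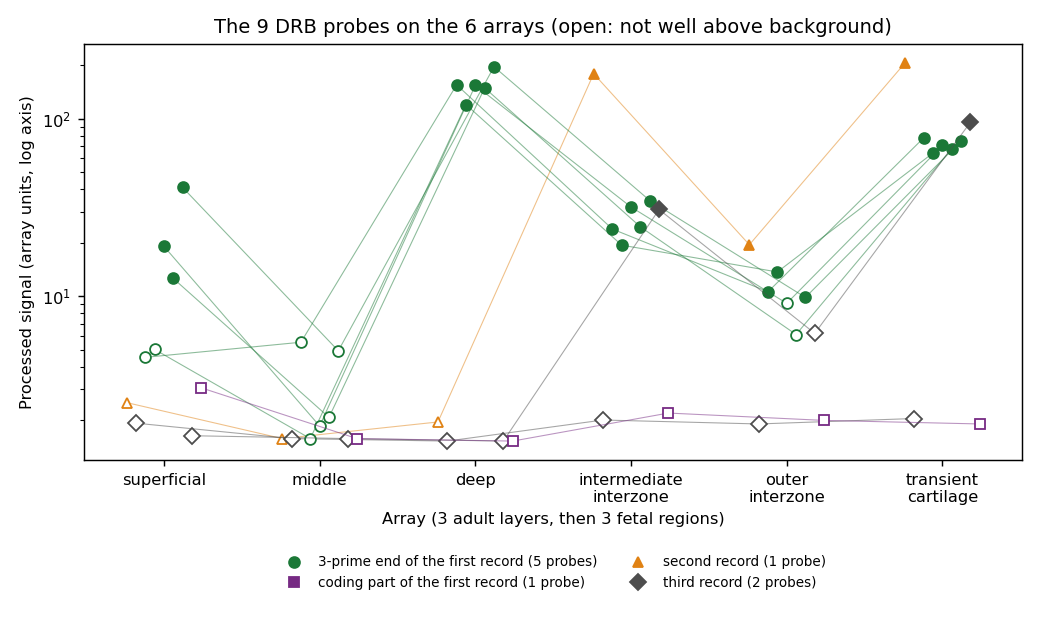
Processed signal (array units, log axis) of each of the 9 DRB probes on the 6 arrays, with colour and shape for the transcript record and part it reads, lines joining the points of a probe, and open points where it was not well above background. The 5 green 3′ end probes peak in the deep zone, with a median of 154, while the probe of the second record is near background in all adult zones and at 179 and 206 in the intermediate interzone and transient cartilage.

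Superficial and middle cartilage were compared over the 4 genes measured in both. All 4 were at least 4-fold lower in the superficial zone: CCL3 41.5-fold, CSF1R 22.2-fold, DQA 10.0-fold and CD68 6.58-fold. Among all 987 genes measured in both zones, 37.0% were at least 4-fold lower in the superficial zone and 9.52% at least 4-fold higher, and quantile normalization turned 94 higher and 365 lower into 39 higher and 723 lower. The median of all measured genes was -1.50 (log2), so relative to it the 4 genes were lower by a further 3.87 for CCL3, 2.97 for CSF1R, 1.82 for DQA and 1.21 for CD68. Without any scaling the superficial signal was still the lower one, at 0.120 times the middle signal for CCL3, 0.225 for CSF1R, 0.499 for DQA and 0.758 for CD68, so that DQA and CD68 were then less than 4-fold apart. DRB went the other way, being above background in the superficial and not in the middle zone, but its bound was only at least 1.04-fold.

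Of all 719 genes whose reported probe was above background on the 3 adult arrays, 64.0% were highest in the middle zone by scaled level and 19.2% by unscaled signal. CSF1R, CCL3 and DQA, the 3 of the 9 genes in that set, were highest there on both scales.

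Middle and deep cartilage were compared over 3 measured genes, and all 3 were at least 4-fold higher in the middle zone. CSF1R was 15.1-fold higher (log2 3.92, spot error 0.30), CCL3 12.4-fold (3.63, 0.21) and DQA 7.56-fold (2.92, 0.29). Among the 802 genes measured in both zones 12.8% were at least 4-fold higher and 7.86% at least 4-fold lower in the middle zone, and the median of all was 0.79. With the 75th percentile over all probes that set gave 48 higher and 88 lower in place of 103 higher and 63 lower. CD68, at background in the deep zone, was higher by at least 5.49-fold in the middle zone, and DRB, by its 3′ end probe, was at least 14.2-fold lower there. With the mean over its 4 probes DQA was 1.37 higher in the middle zone (log2), under 4-fold. With normexp background correction CSF1R and DQA were 1.88 and 1.31 higher in the middle zone (log2) and so no longer 4-fold apart.

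Superficial and deep cartilage were compared over 5 measured genes. DRB was 13.6-fold lower in the superficial zone, and the 3 of its 3′ end probes measured in both differed by -4.46 ± 0.66 (log2, SD between probes). CCL3 (-1.75), LAPTM5 (-0.94), CSF1R (-0.56) and DQA (-0.40) were within 4-fold, with a median over the 5 genes of -0.94 against -0.82 over all 1245 measured genes. In that set 20.9% of genes were at least 4-fold lower in superficial cartilage and 11.0% at least 4-fold higher. This count moved with the scaling: all 5 genes were at least 4-fold lower after quantile normalization, when 735 of all genes were lower and 55 higher, in place of 260 and 137.

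In the fetal limb AIF1 and DRB set the parts of the interzone apart. AIF1 was 9.82-fold higher in the intermediate interzone than in transient cartilage and 7.54-fold higher than in the outer interzone, by its reported probe. Over its 4 probes the differences were 2.98 ± 0.24 and 2.53 ± 0.28 (log2, SD between probes). The outer interzone and transient cartilage differed by 0.45 ± 0.17 over the same probes, in a direction that turned with normexp correction for the reported probe. Of the 7 genes measured in both, AIF1 alone was at least 4-fold higher in intermediate interzone than in transient cartilage, against 14.6% of all 4301 measured genes, and none was 4-fold lower, against 6.72%.

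DRB was low in the outer interzone. Its reported probe was 7.74-fold lower in the outer interzone than in transient cartilage and 6.31-fold higher in the intermediate than in the outer interzone. The outer interzone signal in both folds, 9.85, lay just over 8.95, the lowest signal called above background on that array. The probe of the second record gave 10.8-fold and 16.5-fold for the same comparisons. Between the intermediate interzone and transient cartilage the 2 probes pointed to opposite sides, with -0.30 for the 3′ end probe and 0.62 for the probe of the second record (log2).

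DRB was the 1 gene of 6 measured that was at least 4-fold lower in the outer interzone than in transient cartilage, against 8.15% of 4785 genes, and none was 4-fold higher, against 10.6%. AIF1 and DRB were the 2 of 6 genes at least 4-fold higher in the intermediate than in the outer interzone, against 10.6% of 4253 genes, and none was 4-fold lower, against 7.48%. DRB lost both calls with normexp correction and with quantile normalization: outer interzone minus transient cartilage was then -1.22 and -1.92 (log2), and intermediate minus outer interzone 1.91 and 1.67. With normexp correction the splits over all genes were 322 higher and 39 lower, 145 and 175, and 352 and 15 in the comparisons of intermediate interzone with transient cartilage, outer interzone with transient cartilage and intermediate with outer interzone, in place of 629 and 289, 506 and 390, and 451 and 318.

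CD68 was 2.41-fold higher in the outer interzone than in transient cartilage and 2.40-fold lower in the intermediate than in the outer interzone, and its levels in the intermediate interzone and transient cartilage differed by 0.01 (log2, spot error 0.21). CSF1R, LAPTM5 and CCL3 differed by at most 2.14-fold in any fetal comparison. DQA was at least 3.38-fold lower in the outer interzone than in transient cartilage and at least 2.27-fold higher in the intermediate than in the outer interzone, since its outer interzone value was not well above background. Differences under 2-fold among the fetal regions changed side with the scaling or background correction for CD68, CCL3, DQA and DRB between intermediate interzone and transient cartilage, and for AIF1, CSF1R and LAPTM5 between outer interzone and transient cartilage.

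**Figure D3:**
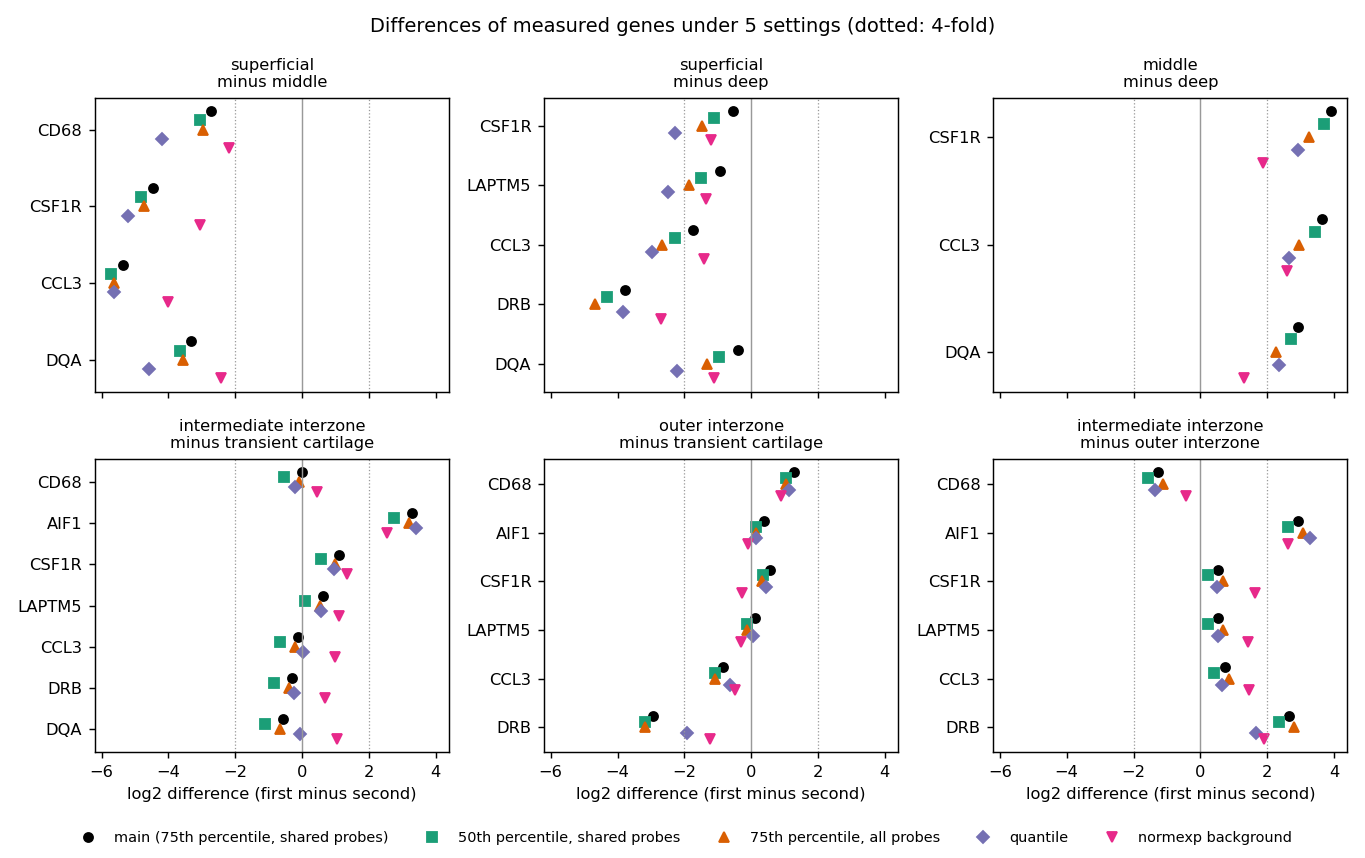
Differences between arrays (log2, first minus second, horizontal axis) for the genes measured on both arrays of each of 6 comparisons, under 5 settings of scaling or background correction given by colour and shape; dotted lines mark 4-fold. CCL3, CSF1R, DQA and CD68 lie left of the 4-fold line in superficial minus middle cartilage under all 5, while CSF1R, LAPTM5, CCL3 and DQA in superficial minus deep cartilage lie on either side of that line.

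Adult and fetal tissue were compared as means over 3 arrays each, with the regions standing in for replicates that the design does not have. CSF1R and CCL3 were the 2 genes measured on all 6 arrays. CSF1R averaged -5.32 in adult and -8.02 in fetal arrays (scaled log2, 6.48-fold higher in adult), and CCL3 averaged -3.87 in adult and -6.61 in fetal arrays (6.68-fold higher in adult). All 3 adult values were above all 3 fetal values for both genes on this scale, but for CCL3 the lowest adult value exceeded the highest fetal value by 0.04. Without scaling the 2 ages overlapped. CSF1R then had its lowest signal of all 6 arrays in the deep zone (10.3). CCL3 had 33.7 in the superficial and 39.6 in the deep zone, against 55.1 in transient cartilage. On the same arrays 14.9% of the 570 genes measured throughout were at least 4-fold higher and 9.3% at least 4-fold lower in adult tissue, with 85 higher and 53 lower. With the 75th percentile over all probes the split was 442 and 3, since the median of all genes moved to 3.27, against 0.56.

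The difference for both genes rested on the middle zone. Without that array CSF1R was 2.46-fold and CCL3 2.36-fold higher in adult tissue, both under 4-fold, and DRB was then measured on all remaining arrays and was 7.21-fold higher. Without the superficial array CSF1R was 11.6-fold and CCL3 15.2-fold higher. With normexp correction neither was 4-fold apart, at 1.60 for CSF1R and 1.94 for CCL3 (log2). AIF1 was at least 6.06-fold lower in adult tissue. The limma fit over regions called 1 of 7 of the genes, AIF1 (log2 -4.26, adjusted p = 0.0403), while it called 33.1% of all 14743 probes it tested, 261 of them higher and 4615 lower in adult tissue.

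The 9 genes were set beside other genes of the same cells. Of 48 other macrophage and myeloid genes 40 were on the array, and 26 of these were above background on no array, among them the complement genes C1QA, C1QB and C1QC, the adaptor TYROBP, the integrin chains ITGAM and ITGB2, the oxidase gene CYBB, the mannose receptor MRC1 and the lineage factor SPI1. Above background were 3 of 40 in the superficial, 1 in the middle and 1 in the deep zone, and 8, 10 and 8 in the intermediate interzone, outer interzone and transient cartilage. The summed signal of the 40 genes was 974, 141 and 162 in the superficial, middle and deep zones and 1520, 1300 and 673 in the intermediate interzone, outer interzone and transient cartilage. CTSS alone made up 729 of the sum in the superficial zone and 628 of that in the intermediate interzone. Without CTSS the sums were 245, 139 and 160 in the superficial, middle and deep zones and 890, 922 and 605 in the intermediate interzone, outer interzone and transient cartilage. These sums are unscaled, and the middle array, where CSF1R, CCL3 and DQA were highest, had both the lowest sum and the lowest 75th percentile. CD53, a tetraspanin of leukocytes, was the 1 gene above background in all 3 adult zones, with signals of 136, 54.8 and 78.8 in the superficial, middle and deep zones, and with 142, 138 and 87.6 in the intermediate interzone, outer interzone and transient cartilage. The other myeloid genes above background in an adult zone, LST1 and CTSS, were so in the superficial zone.

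In the fetal regions some of the macrophage genes above background differed between regions. TREM2, a receptor of tissue macrophages, had a signal of 2.72 in intermediate interzone, 111 in outer interzone and 2.04 in transient cartilage. CD86, a costimulatory protein of antigen-presenting cells, had 67.8, 2.17 and 2.20 in the same order of regions, above background by 1 of its 2 probes. The glycoprotein gene GPNMB had 404, 277 and 1.89. The pattern receptor TLR2 had 141, 38.5 and 1.89. These 4 were near background in transient cartilage, and others were highest there. NCF4, which encodes a subunit of the phagocyte oxidase, had 2.31, 2.01 and 76.7 in the same order of regions. The actin-bundling protein gene LCP1 had 1.86, 1.80 and 92.2. The scavenger receptor gene CD36 had 10.0, 2.12 and 225, while the integrin genes ITGAM, ITGAX and ITGB2 were above background nowhere. Other genes of the list were above background in each fetal region. Among them CORO1A had 21.3, 18.2 and 17.9 and LST1 had 15.9, 10.6 and 12.8 in the same order.

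Of the other class II genes and their presentation machinery 13 of 14 were on the array, with 5 above background in the superficial, 3 in the middle and 3 in the deep zone and 7 in each fetal region. DRA, the partner chain of DRB, and the loading chains DMA, DMB and DOB were above background on no array. DQB, the partner chain of DQA, was above background on all 6, with signals of 64.4, 67.7 and 42.8 in the superficial, middle and deep zones and of 108, 134 and 162 in the intermediate interzone, outer interzone and transient cartilage, but by 1 of its 8 probes. CIITA, the class II transactivator, was measured on all 6 arrays as well, with 33.0, 11.9 and 12.8 in the superficial, middle and deep zones and 15.7, 15.5 and 40.1 in the intermediate interzone, outer interzone and transient cartilage. CTSS, the cathepsin that cleaves the invariant chain, had 729 in the superficial zone and was not above background in the middle (1.58) or deep zone (1.53), against 628, 377 and 68.5 in the intermediate interzone, outer interzone and transient cartilage. RFXANK, a subunit of the RFX complex, had 146 in the superficial zone and 853, 805 and 419 in the fetal regions in the same order, and was not above background in the middle or deep zone.

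In superficial against middle cartilage the other class II genes measured in both were 3, of which 1 was at least 4-fold lower in the superficial zone, with a median of -1.40 against -3.90 for the 4 of the 9 genes and -1.50 for all genes. For middle against deep cartilage the other 3 class II genes were within 4-fold, with a median of 0.70 against 3.63 for the 3 of the 9 genes and 0.79 for all genes.

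Markers of other cells were counted in the same way. Above background in the superficial, middle and deep zones were 3, 1 and 1 of 18 genes of T, B and NK cells, 0, 0 and 0 of 6 neutrophil and mast cell genes, 2, 1 and 1 of 8 osteoclast genes, 1, 1 and 1 of 9 endothelial genes and 0, 0 and 1 of 8 red blood cell genes. VWF, which is made by endothelial cells and stored in platelets, was the endothelial gene seen in adult cartilage, with 25.6, 41.6 and 34.6 in the superficial, middle and deep zones, and was not above background in any fetal region, while PECAM1, CDH5 and KDR were so on no array. In the intermediate interzone, outer interzone and transient cartilage, 2, 3 and 3 of the T, B and NK cell genes, 2, 1 and 0 of the neutrophil and mast cell genes, 1, 1 and 3 of the osteoclast genes, 1, 2 and 0 of the endothelial genes and 1, 1 and 2 of the red blood cell genes were above background. HBB, a globin gene of red blood cells, had 478, 64.7 and 172 in those regions, with scaled levels of -2.35, -6.08 and -4.65. It was thus highest in the intermediate interzone, as AIF1 was, and lowest in the outer interzone, as DRB was. KIT, a receptor of mast cells and of other progenitor cells, had 71.8, 3.77 and 2.00, and the endothelial gene ENG 61.9, 136 and 2.00. The part of any of these cells in the signals of the 9 genes was not tested.

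**Figure D4:**
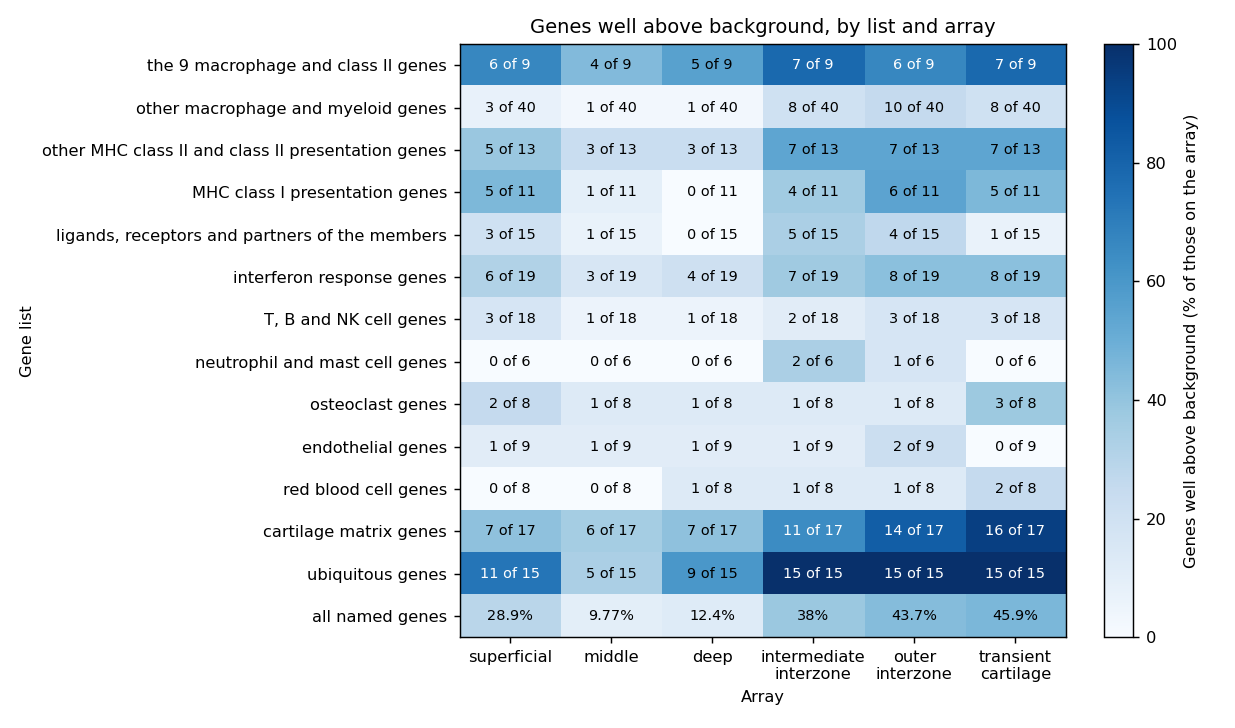
Genes well above background on each array (columns) for the 9 genes, 12 other gene lists and all named genes (rows), as counts of the genes on the array, or percent in the last row, with shading for the percent. Of the 40 other macrophage and myeloid genes, 1 was above background on the middle and 1 on the deep array, while all 15 ubiquitous genes were so on each fetal array and 5 of 15 on the middle array.

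Genes with the most similar course over the 6 arrays were sought among named genes above background on exactly the same arrays, by Pearson's r of the scaled log2 levels. For CCL3 they were CLEC1B (0.992), LRRC46 (0.990) and PAQR8 (0.988) of 528 genes, and for CSF1R they were PSPN (0.990), MZF1 (0.986) and PTPRCAP (0.985) of 528. CCL3 and CSF1R themselves gave 0.963 over the 6 arrays and 0.720 without the middle array, and CCL3 and DQA gave 0.956 and 0.820. For AIF1 the nearest were LDLRAD4 (0.985), ELOVL1 (0.977) and VPS28 (0.976) of 1282 genes, and for CD68 NDRG2 (0.956), THG1L (0.942) and S100A10 (0.939) of 159. LAPTM5 was closest to PTP4A3 (0.941), LSM4 (0.936) and ZNF449 (0.923) of 351 genes, DRB to TPGS1 (0.972), IER5L (0.959) and SPSB4 (0.906) of 351, and DQA to ADAM11 (0.906), RNF215 (0.886) and ORAI2 (0.825) of 5. The 6 points of each r share their array, amplification and scaling with those of every other gene, so these values are descriptions.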

How the data were processed

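The authors deposited the scanner output of 6 single-colour Agilent arrays, written, per the file headers, by version 10.7.3.1 of Agilent Feature Extraction. The processed signal is a linear intensity, which per the file headers had its background subtracted by the software. The labels' protocols give frozen sections of 10 µm, RNA amplified with SuperAmp, and 250 ng of cDNA per array labelled with Cy3. The deposited series table proved to be the same intensity divided by each array's median.

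Of 45220 spots 1417 were controls and were left out, no spot was saturated, and 3 to 80 outlier spots per array were dropped. Spots of a probe were averaged. Probes were named from their descriptions through a RefSeq table of horse genes (assembly TB-T2T), and 19869 had no name. Of several probes of a gene, the reported one had the highest mean scaled level over the 6 arrays. A gene was not above background if none of its probes was. "At least" folds set the bright value against the higher of the dim probe's own signal and the lowest signal called above background on that array.

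Named genes are the 9, genes of the lists above background on an adult array or 4-fold apart (the text gives a selection, and names others after their values were seen), the 3 most similar genes each, and cartilage markers. Some list genes are not reported here. The 9 genes and the lists were chosen with earlier results of these data known. The scaling uses probes detected on all arrays because under 50% of probes were detected on each. Alternatives were other scalings, normexp correction with an offset of 50, other filters, the mean over probes, a 2-fold threshold, leaving out each array and limma 3.58.1, which was tested on simulated data. Python 3.11.15 and R 4.3.3 were used.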

Additional observations from a re-analysis of the deposited data

How the results depend on the processing

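No paired analysis was possible because each group has 1 array. Of the 4 genes measured in superficial and middle cartilage, all 4 stayed at least 4-fold lower in the superficial zone under each scaling, background correction and filter listed as an alternative, but without any scaling DQA (0.499 times the middle signal) and CD68 (0.758 times) were less than 4-fold apart. Counts in the other comparisons moved. The count for superficial against deep cartilage, 1 in the main setting, was 2 with the 50th percentile and 2 with the 75th percentile over all probes. It was 5 with quantile normalization, 4 with no filter and 2 at 2-fold. In the same order all genes gave 100 higher and 406 lower, 86 and 527, 55 and 735, 2160 and 1369, and 217 and 555. The main setting gave 137 and 260 of 1245 genes, and 13567 genes entered with no filter. For middle against deep cartilage the count was 3 in the main setting, 1 with normexp correction and 2 with the mean over the probes of a gene (without DQA). It was 4 with the call of positive and significant over background and 5 with no filter. All genes gave 41 higher and 44 lower with normexp, 378 and 231 with that call and 974 and 623 with no filter. The main setting gave 103 and 63. For intermediate interzone against transient cartilage, 1 became 2 at 2-fold, where all genes gave 1384 higher and 774 lower. For outer interzone against transient cartilage, 1 became 0 with quantile normalization, 0 with normexp and 2 at 2-fold. In that order all genes gave 443 higher and 426 lower, 145 and 175, and 1209 and 948. For intermediate against outer interzone, 2 became 1 with quantile normalization and 1 with normexp. All genes gave 463 and 305, and 352 and 15. The gene lost with quantile normalization and normexp was DRB in both comparisons. For adult against fetal tissue, 2 became 0 with normexp and 6 with no filter, while all genes gave 52 higher and 21 lower, and 1576 and 2905. Leaving out each array in turn gave from 1 to 2. The 1, without the middle array, was DRB, and CSF1R and CCL3 were then under 4-fold apart. Counts with no filter take in values not above background, such as those of CD14 for adult against fetal tissue. For superficial against deep cartilage these were AIF1 and CD74 on both arrays and CD68 in the deep zone. A limma fit over regions called 1 of 7 of the genes, AIF1 (log2 -4.26, adjusted p = 0.0403), against 33.1% of 14743 probes (261 higher, 4615 lower in adult tissue). The adult AIF1 values in it were not above background. No called gene changed direction. Requiring every probe of a gene above background left 3 genes in the superficial zone, 2 in the deep zone, 4 in the intermediate interzone and 4 in transient cartilage, and the call of positive and significant over background gave 8 in the deep zone. The shares of all named genes under these filters are not given here, so these counts have nothing beside them. The causes of these moves were not tested, except that fewer or more genes were measured where a filter changed. Of 15 adult values of the 9 genes above background, 12 lay within 10-fold of the lowest signal so called, so signal over background limits what these arrays can show.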

Other observations

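Genes of MHC class I presentation, which most nucleated cells carry, were above background in 5 of 11 cases in the superficial, 1 in the middle and 0 in the deep zone, and 4, 6 and 5 in the intermediate interzone, outer interzone and transient cartilage. B2M, the light chain of class I, had a processed signal of 3280 in the superficial zone and was not above background in the middle (1.58) or deep zone (2.02), against 479, 780 and 213 in the intermediate interzone, outer interzone and transient cartilage. The peptide transporters TAP1 and TAP2 were above background on no array. Interferon response genes were above background in 6, 3 and 4 of 19 cases in the superficial, middle and deep zones and in 7, 8 and 8 in the fetal regions.

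Some partners of the 9 genes were above background on some arrays and not on others. TLR4, the signalling receptor that CD14 serves, had 859 in the superficial zone and 28.0 in the intermediate interzone and was above background nowhere else. LY96, its other co-receptor, was above background in the intermediate interzone only (169). CD44, a partner of CD74 at the cell surface, had 4000 in the superficial and 9070 in the middle zone and was not above background in the deep zone (1.53), against 102 in the intermediate interzone and 452 in the outer interzone. The lysozyme gene LYZ is in the list of other macrophage and myeloid genes, not among these partners. It was above background by all 6 of its probes in the outer interzone, with 229 for the reported probe, and by none elsewhere.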
